A study of Homo sapiens with 54 samples.

Results

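The genes described here are 8 that make, balance or destroy the deoxyribonucleotides (dNTPs) used for DNA synthesis. They are RRM1, RRM2 and RRM2B, which encode the subunits of ribonucleotide reductase, and SAMHD1, DCK, DCTD, DTYMK and NME1. They were chosen by symbol from the 59368 genes of the deposited tables. All 8 were detected in every library and all 8 passed the filter on low counts in every line. RNA-seq was available for 3 lines derived from human colorectal cancers (HCT-116, HT-29 and DLD-1), of which both a 5-FU-sensitive form and a form labelled 5-FU-resistant were used. The resistant lines had been passaged in rising concentrations of 5-fluorouracil (5-FU), an analogue of uracil that blocks thymidylate synthase and is built into RNA and DNA, and were kept in the drug. The control treatment was uracil at 10 µM, and the others were 5-FU at 10 µM, alone or followed by X-rays at a dose set for each line as half-lethal. Drug or uracil was given for 24 h. Each of these 18 conditions had 3 libraries, so 54 libraries were compared. No untreated cells and no cells irradiated without 5-FU were analysed here.

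Ribonucleotide reductase converts ribonucleoside diphosphates into deoxyribonucleoside diphosphates and is the rate-limiting step of de novo dNTP synthesis. RRM1 encodes the large catalytic subunit, which pairs with one of a pair of small radical-bearing subunits: RRM2, made in S phase and degraded afterwards, or RRM2B, which DNA damage can induce and which serves DNA repair and mitochondrial DNA outside S phase. SAMHD1 is a hydrolase that breaks dNTPs down, DCK salvages deoxycytidine and related nucleosides, DCTD deaminates dCMP to the dUMP that thymidylate synthase methylates, DTYMK phosphorylates dTMP, and NME1 is a nucleoside diphosphate kinase of the last step to triphosphates. The RRM2B gene is on chromosome 8 and no sequence of it is shown.

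RRM1 lies on the plus strand of chromosome 11 (chr11:4094707-4138932, GRCh38, GENCODE 44), RRM2 on the plus strand of chromosome 2 (chr2:10120698-10211725), and DTYMK on the minus strand of the same chromosome (chr2:241675747-241686944). SAMHD1 lies at chr20:36890229-36951893 on the minus strand, DCK at chr4:70992538-71030914 on the plus strand, DCTD at chr4:182890060-182917936 on the minus strand and NME1 at chr17:51153559-51162428 on the plus strand.

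The promoters of RRM2, DTYMK and RRM1 are shown because these 3 genes had the largest decreases after 5-FU among the 8, all in sensitive HCT-116. Each line holds the 250 bases before a start site, 5′ to 3′, from the RefSeq promoter table of GRCh38.p14, at chr2:10122489-10122738 on the plus strand for RRM2, chr2:241686816-241687065 on the minus strand for DTYMK and chr11:4094435-4094684 on the plus strand for RRM1. Capitals mark the letters CCAAT, the core of the site bound by the factor NF-Y.
RRM2: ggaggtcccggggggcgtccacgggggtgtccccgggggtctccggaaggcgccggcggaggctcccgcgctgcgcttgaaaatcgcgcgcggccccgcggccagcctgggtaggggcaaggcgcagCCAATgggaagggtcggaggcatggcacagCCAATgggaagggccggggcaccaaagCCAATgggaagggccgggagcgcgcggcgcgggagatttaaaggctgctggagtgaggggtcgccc
DTYMK: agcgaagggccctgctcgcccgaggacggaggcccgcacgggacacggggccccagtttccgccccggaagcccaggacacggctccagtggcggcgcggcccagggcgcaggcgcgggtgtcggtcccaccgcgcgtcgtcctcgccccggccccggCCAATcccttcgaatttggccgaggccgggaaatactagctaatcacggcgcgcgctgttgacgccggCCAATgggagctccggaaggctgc
RRM1: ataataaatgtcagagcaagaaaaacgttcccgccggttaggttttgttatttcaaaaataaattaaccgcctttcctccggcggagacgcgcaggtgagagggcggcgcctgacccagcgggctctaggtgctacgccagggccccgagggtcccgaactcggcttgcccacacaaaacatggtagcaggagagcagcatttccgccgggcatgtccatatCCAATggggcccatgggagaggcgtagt
Counted from the start site, CCAAT began at -123, -93 and -66 in RRM2, at -92 and -24 in DTYMK and at -28 in RRM1. Searched on both strands of the table's windows, CCAAT was present in 32.0% of all 35116 promoters and in promoters of 5 of the 7 listed genes that the table holds (RRM1, RRM2, SAMHD1, DTYMK and NME1). Here and below, the shares of all promoters count single promoters, whereas each listed gene is counted once, and RRM2 and DCTD have several promoters. The letters TTTGAA or TTCGAA of the cell cycle homology region were found in 14.3% of all promoters and in those of RRM1 and DTYMK, where none overlapped a CCAAT. Of 4 spelled-out E2F strings (TTTCCCGC, TTTGGCGC, TTTCGCGC and TTTGCCGC), which were present in 2.79% of all promoters, none was found in the windows of the 7 genes.

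The depth was 38956787 to 218518001 counts per library, with a median of 51373192. The study calls its replicates biological and the labels number the 3 libraries of a condition without naming cultures, so p-values measure the spread between these libraries. Replicate 1 of resistant DLD-1 under uracil stood apart from its mates, and some of the results that use it are also given without it. Those values leave out replicate 1 of every group used, not this library alone. The libraries labelled resistant HT-29 went against their label. Of 64 genes that marked sensitive HCT-116, 62 were present in them at 1 TPM or more under all 3 treatments (TPM is a transcript abundance corrected for transcript length and scaled to the same total in every library), and of 12 genes that marked sensitive HT-29 they held 0. They are called labelled resistant HT-29 throughout, and any difference between them and sensitive HT-29 cannot be told apart from a difference between lines. Colorectal epithelial markers summed to 2354 to 14551 TPM, and the leukocyte markers PTPRC and CD3E, the fibroblast markers COL1A2, COL3A1 and DCN and the endothelial markers VWF and CDH5 were under 1 TPM in every library. The 5 leukocyte markers summed to 0.641 to 1708 TPM, with high values in sensitive HT-29 alone, through LYZ. All 5 fibroblast markers together summed to 0.603 to 31.4 TPM, with the highest value in sensitive HCT-116 treated with 5-FU. All 3 endothelial markers together summed to 0.162 to 5.43 TPM.

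Since TPM corrects for length, it gives levels that can be compared between genes. On this scale NME1 had condition means of 251 to 927 TPM and was the most abundant of the 8 genes except in sensitive DLD-1 and HT-29 treated with 5-FU, where RRM2 was. RRM2 ranged from 74.1 to 482 TPM, RRM1 from 33.9 to 243 TPM, DCTD from 69.3 to 146 TPM and DTYMK from 31.9 to 134 TPM. RRM2B (12.4 to 70.5 TPM), DCK (17.9 to 53.8 TPM) and SAMHD1 (12 to 35 TPM) were the low members. The plot of levels by library shows these ranges gene by gene.

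**Figure D1:**
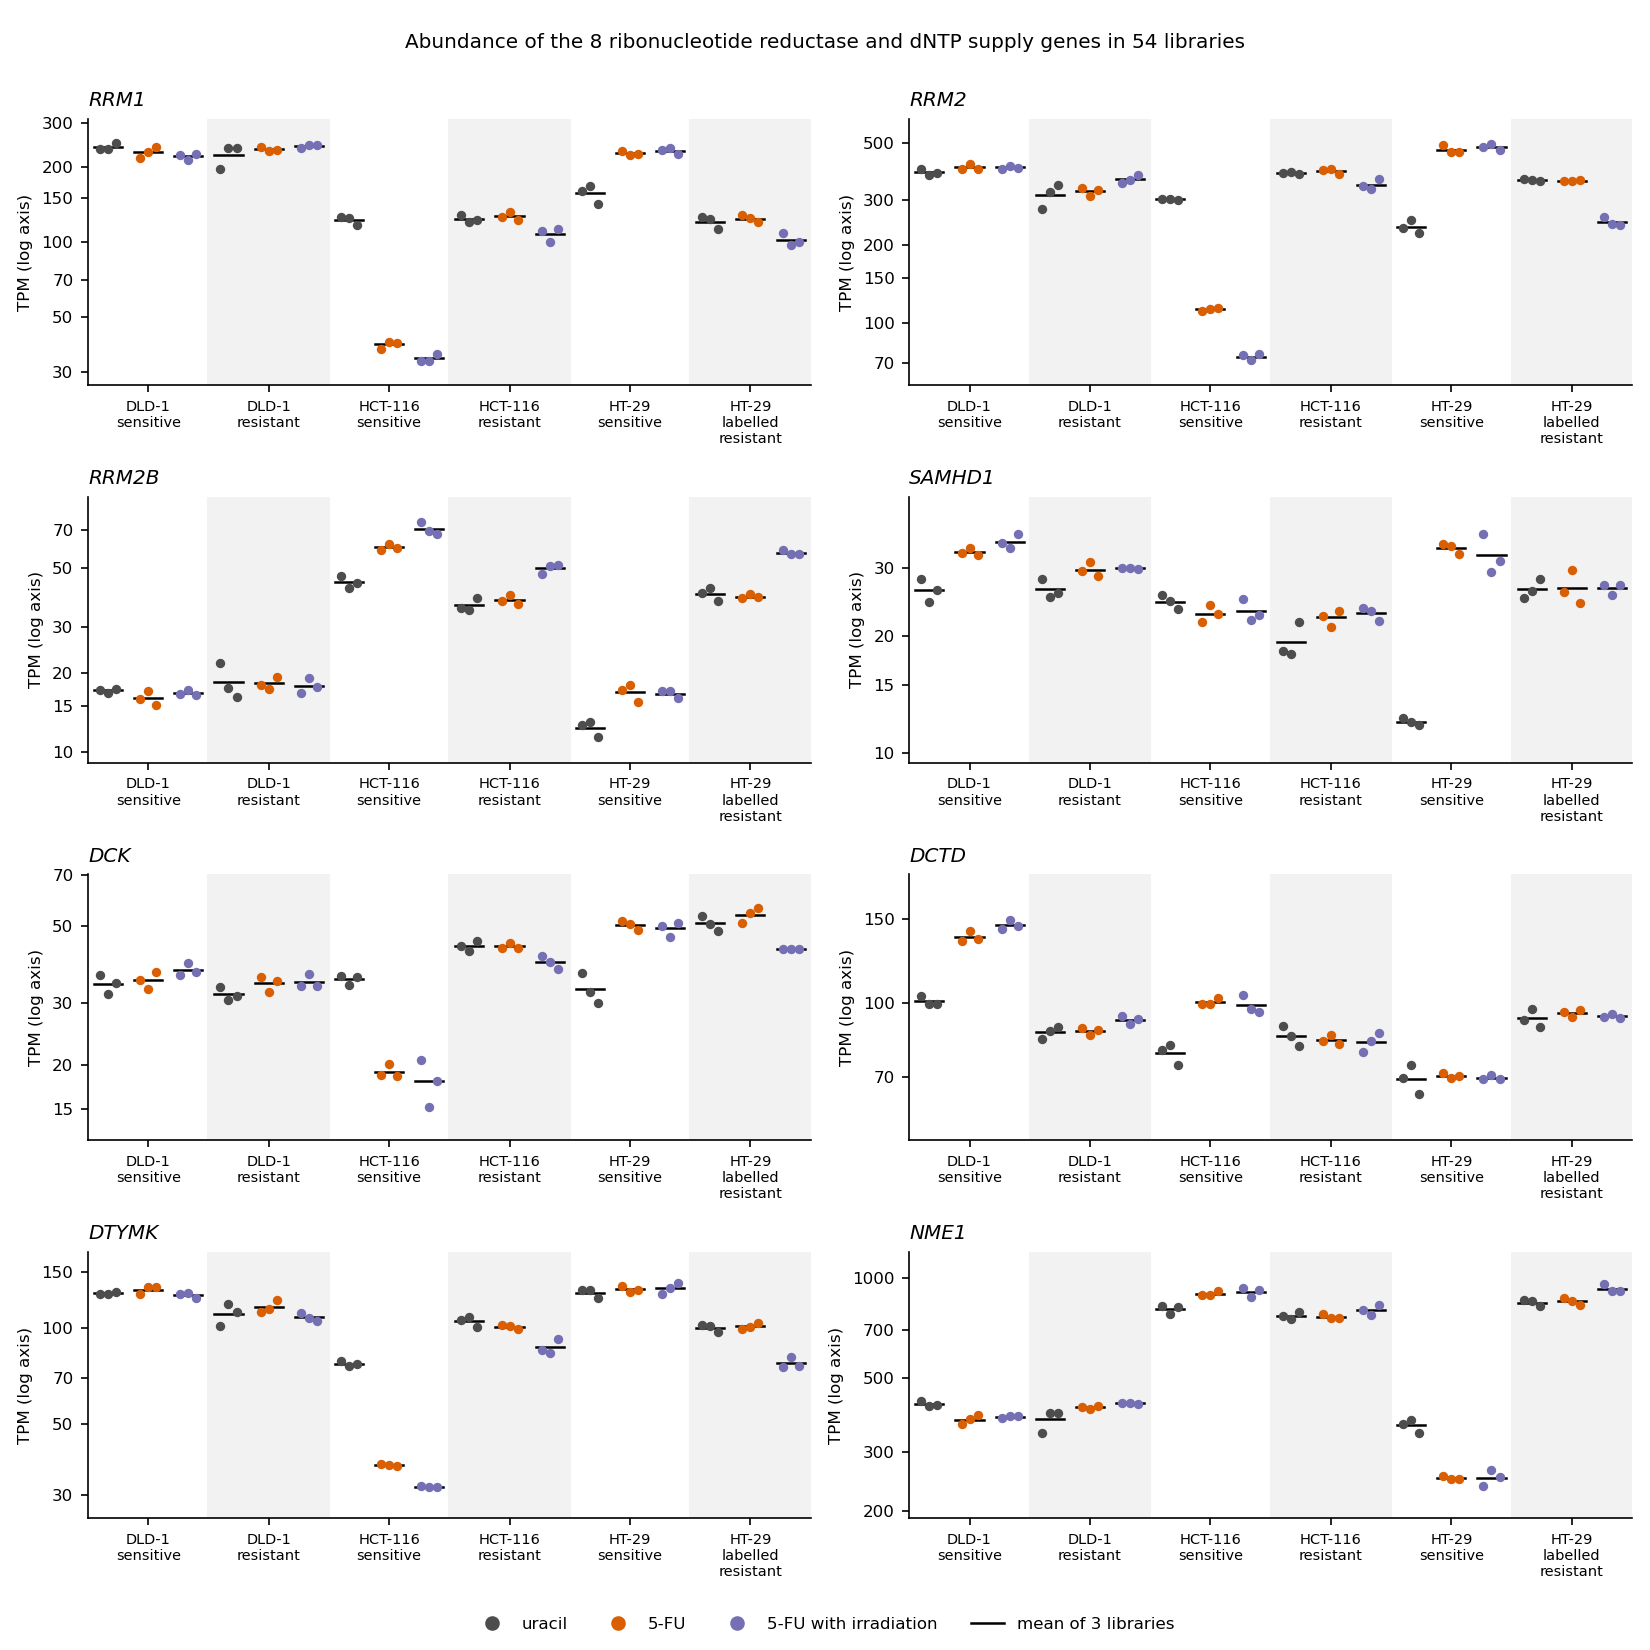
Levels of the 8 dNTP supply genes in all 54 libraries, 1 panel per gene, with TPM on a log axis against the 18 conditions. Points are single libraries and horizontal lines are means of 3. RRM1, RRM2, DCK and DTYMK were lowest in sensitive HCT-116 after 5-FU with or without irradiation, where RRM2B was highest.

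Under uracil RRM2B already set sensitive HCT-116 apart from the other sensitive lines. Its levels were 46.9, 42.2 and 43.9 TPM in the 3 HCT-116 libraries, 17.3, 16.8 and 17.4 TPM in DLD-1, and 12.7, 13 and 11.4 TPM in HT-29. All HCT-116 libraries lay above all others, and the DLD-1 libraries lay above the HT-29 libraries. Where libraries are said to separate or not to overlap, here and below, no share of all genes that do the same is given. Fold changes here and below were fitted with edgeR's quasi-likelihood test on estimated counts scaled by TMM, a factor set by the bulk of genes, and a gene was called where the p adjusted by Benjamini-Hochberg was 0.01 or less. RRM2B was higher in HCT-116 than in DLD-1 by 1.43 on the log2 scale (SE 0.0638, adjusted p = 1.25e-25) and lower in HT-29 than in HCT-116 (log2 fold change -1.70, SE 0.066, adjusted p = 2.61e-28). Of the 8 genes, 7 differed between HCT-116 and DLD-1, where 59.8% of all 26043 genes tested did. The corresponding counts were 5 for HT-29 against DLD-1 (58.8% of all genes) and 6 for HT-29 against HCT-116 (63.7%).

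RRM1, the large subunit, was highest in DLD-1 at 236, 237 and 250 TPM, intermediate in HT-29 at 160, 167 and 143 TPM, and lowest in HCT-116 at 125, 125 and 117 TPM, with no overlap between lines. RRM1 was lower in HCT-116 than in DLD-1 (log2 fold change -0.99, adjusted p = 4.29e-24) and lower in HT-29 than in DLD-1 (-0.40, adjusted p = 1.87e-10). RRM2 was also highest in DLD-1, and was lower in HCT-116 by a log2 fold change of -0.26 and in HT-29 by one of -0.47. NME1 was higher in HCT-116 than in DLD-1 (log2 fold change 0.92) and SAMHD1 was lower in HT-29 than in both other lines (-0.99 against DLD-1 and -0.81 against HCT-116). DCK did not pass the test between any pair of lines (log2 fold changes of 0.03, 0.11 and 0.08). DTYMK was lower in HCT-116 than in both DLD-1 (-0.76) and HT-29, where the difference of HT-29 from HCT-116 was 0.89. Without replicate 3, the lower RRM2 (adjusted p = 0.0168) and SAMHD1 (0.0427) of HCT-116 against DLD-1 lost their calls, as did the lower RRM2B of HT-29 against DLD-1 (0.0597) and the lower RRM2 of HT-29 against HCT-116 (0.0557). Without replicate 2, RRM2 (0.0117) and SAMHD1 (0.0104) of HCT-116 against DLD-1 were lost, and with DESeq2 that SAMHD1 difference was too (-0.11, adjusted p = 0.0282).

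In sensitive HCT-116 cells treated with 5-FU, RRM1, RRM2, DTYMK and DCK fell while RRM2B, DCTD and NME1 rose. Of the 8 genes, 3 rose, 4 fell and 1 did not pass, where 42% of all 22975 genes tested changed. RRM1 was at 125, 125 and 117 TPM under uracil and at 37.2, 39.5 and 39.1 TPM with 5-FU. RRM2 was at 304, 304 and 301 TPM under uracil and at 111, 113 and 114 TPM with 5-FU. Neither gene overlapped between treatments, and RRM1 (log2 fold change -1.61, SE 0.042, adjusted p = 3.48e-18) and RRM2 (-1.38, SE 0.0585, adjusted p = 1.1e-14) were the 2 largest changes among the members. Together with DTYMK they were the 3 members that changed 2-fold, where 8.14% of all genes did. DTYMK, the thymidylate kinase, went from 78.8, 76.5 and 77.2 TPM to 37.6, 37.3 and 37.0 TPM (log2 fold change -1.14, adjusted p = 8.17e-15). DCK went from 36, 33.9 and 35.6 TPM to 18.7, 20.1 and 18.6 TPM (-0.89, adjusted p = 6.52e-10). These 2 genes separated by treatment in every library as well.

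RRM2B moved the other way in the same HCT-116 libraries, from 46.9, 42.2 and 43.9 TPM under uracil to 58.6, 62.0 and 59.7 TPM with 5-FU. All 3 treated libraries lay above the controls (log2 fold change 0.45, SE 0.0525, adjusted p = 1.77e-07). DCTD, the dCMP deaminase, rose by 0.34 (adjusted p = 1.87e-06), from 79.5, 81.7 and 74.2 TPM to 99.3, 99.5 and 102 TPM. NME1 rose least (0.14, adjusted p = 0.00613), and its call was lost without each replicate number in turn (adjusted p = 0.0239 to 0.0627). SAMHD1 did not pass (-0.01, adjusted p = 0.821), with 25.5, 24.7 and 23.5 TPM under uracil and 21.8, 24.0 and 22.8 TPM with 5-FU. In bulk RNA, a lower level in each cell and a smaller share of cells that express the gene cannot be told apart.

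In sensitive HT-29 cells, 5-FU raised both small subunits, and the largest change was in SAMHD1, the gene that did not pass in HCT-116. All 8 genes passed, 5 higher and 3 lower, where 47% of all 23756 genes tested changed, and SAMHD1 alone changed 2-fold, where 12.2% of all genes did. SAMHD1 was at 12.3, 12 and 11.8 TPM under uracil and at 34.6, 34.1 and 32.6 TPM with 5-FU, well separated (log2 fold change 1.22, SE 0.0477, adjusted p = 3.41e-17). RRM2 went from 233, 252 and 223 TPM to 491, 459 and 460 TPM (0.92, SE 0.0502, adjusted p = 2.09e-14). RRM1 was at 160, 167 and 143 TPM and then at 232, 224 and 226 TPM (0.31, adjusted p = 2.28e-06). None of these 3 genes overlapped between treatments. DCK rose by 0.34 (adjusted p = 2.12e-05). RRM2B was at 12.7, 13 and 11.4 TPM under uracil and at 17.3, 18 and 15.6 TPM with 5-FU (0.21, adjusted p = 0.00549), a call lost without replicate 2 (adjusted p = 0.0367) or replicate 3 (0.0187).

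The kinase NME1 fell in HT-29, from 366, 375 and 343 TPM to 254, 250 and 249 TPM (log2 fold change -0.75, SE 0.0501, adjusted p = 1.34e-12). DCTD (-0.28, adjusted p = 9.01e-06) and DTYMK (-0.21, adjusted p = 0.000152) also fell on the TMM scale. Their TPM values did not separate: DCTD was at 69.5, 74.1 and 64.3 TPM under uracil and at 71.2, 69.4 and 70.3 TPM with 5-FU. Scaling by library size alone moved the median of all genes in this comparison from 0.0345 to 0.192. With it the DTYMK call was lost (-0.05, adjusted p = 0.189), and that call was also lost without replicate 2 (adjusted p = 0.0238).

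In sensitive DLD-1 cells the members moved least. Here 2 genes rose, 3 fell and 3 did not pass, where 34.7% of all 21814 genes tested changed, and 0 members changed 2-fold (4.02% of all genes). DCTD was at 103, 99.6 and 99.6 TPM under uracil and at 135, 142 and 136 TPM with 5-FU (log2 fold change 0.29, adjusted p = 6.49e-06). SAMHD1 was at 28.0, 24.5 and 26.4 TPM and then at 32.7, 33.7 and 32.4 TPM (0.27, adjusted p = 8.78e-06). Both genes separated by treatment. NME1 fell (-0.26, adjusted p = 0.000139), as did RRM1 (-0.20, adjusted p = 0.00115) and RRM2B (-0.23, adjusted p = 0.00301). The RRM1 and RRM2B calls were lost with library size alone, which moved the median of all genes from 0.0146 to 0.115 (RRM1 -0.10, adjusted p = 0.0423, and RRM2B -0.13, adjusted p = 0.0868). RRM1 was lost without replicate 3 (adjusted p = 0.0228) and RRM2B without replicate 2 (0.0190) or 3 (0.0351). RRM2 was at 397, 376 and 380 TPM under uracil and at 394, 415 and 395 TPM with 5-FU (0.07, adjusted p = 0.436).

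**Figure D2:**
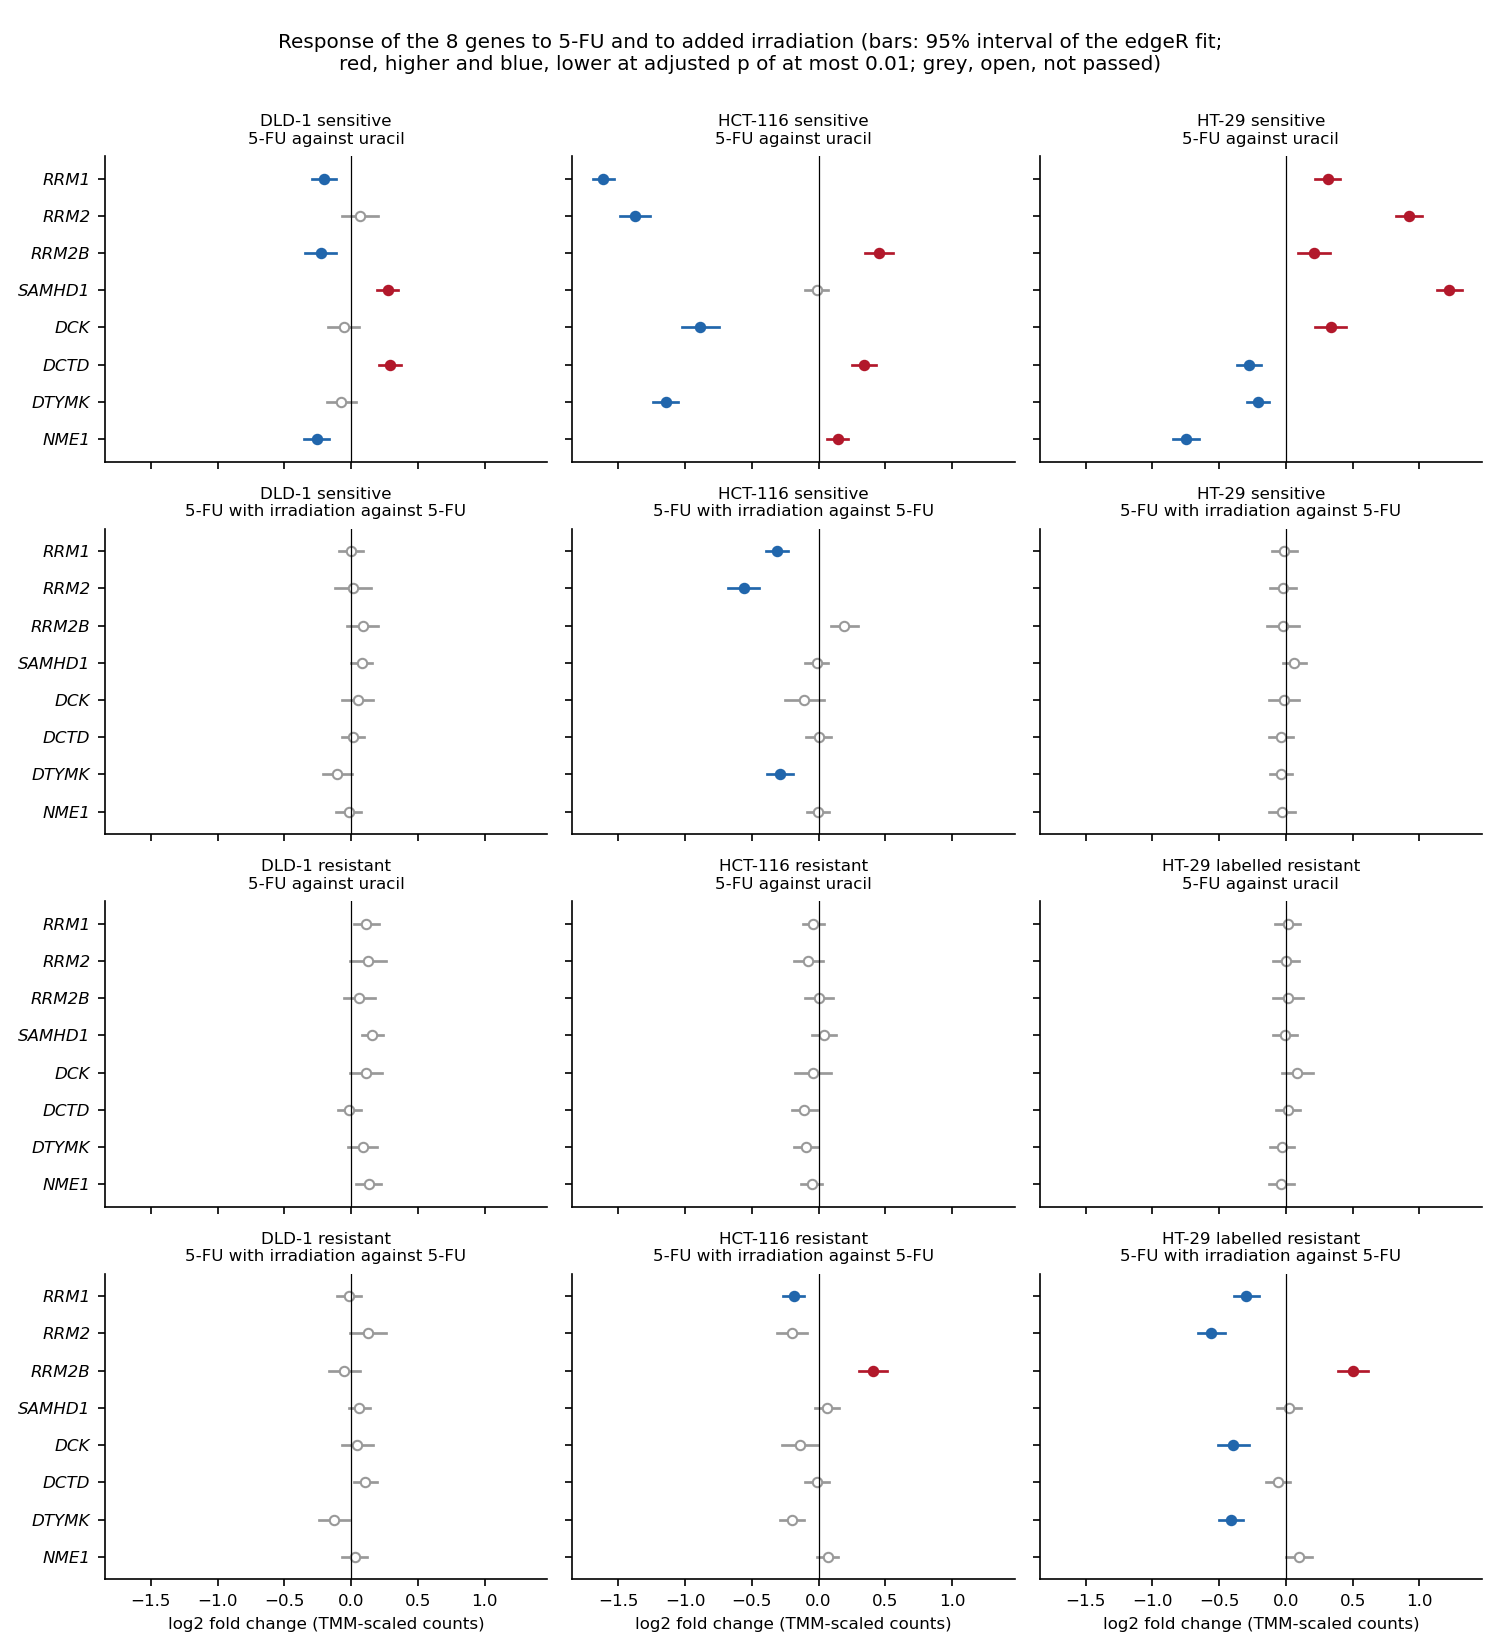
Log2 fold changes of the 8 genes with approximate 95% intervals from edgeR, 1 column per line and 1 row per comparison (5-FU against uracil, and added irradiation against 5-FU, in sensitive and then resistant cells). Filled points passed an adjusted p of 0.01. In sensitive HCT-116, RRM1 lay at -1.61 and RRM2B at 0.45, while none of the 8 genes passed for 5-FU against uracil in any of the lines labelled resistant.

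The 5-FU responses of the sensitive lines were also compared with each other, in 1 fit over all 54 libraries. HT-29 and HCT-116 differed for 7 of the 8 genes (34.9% of all genes), with differences of 2.36 for RRM2, 1.98 for RRM1, 1.3 for SAMHD1, 1.28 for DCK and 0.99 for DTYMK on the log2 scale. The response of RRM2B did not pass between these 2 lines (-0.18, adjusted p = 0.1). HCT-116 and DLD-1 differed for 7 genes (25.3% of all genes), DCTD being the one that did not pass, and HT-29 and DLD-1 for 7 (27.2%), DTYMK being the one that did not. RRM2B differed between HCT-116 and DLD-1 by 0.69 and between HT-29 and DLD-1 by 0.50. Without replicate 2 the SAMHD1 difference of HCT-116 from DLD-1 (-0.28) was lost (adjusted p = 0.0133), and without replicate 3 the DCK difference of HT-29 from DLD-1 (0.46) was lost (0.0136). The comparisons between lines share the libraries of each line.

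Other genes of the pathway did not move as 1 block. Of 23 further enzymes of dNTP metabolism, 7 rose and 10 fell in sensitive HCT-116, with a median log2 fold change of -0.08. There thymidine kinase TK1 (-1.87), thymidylate synthase TYMS (-1.34) and the dUTPase DUT (-1.09) fell, and the cytidine deaminase CDA (0.73) and the adenylate kinase AK1 (0.55) rose. In HT-29, 8 rose and 9 fell, and CDA (2.37), TK1 (0.83) and TYMS (0.51) rose while the nucleotidase NT5C (-0.71) and DUT (-0.57) fell. In DLD-1, 3 rose and 9 fell, with CDA at 0.64 and ADA, the adenosine deaminase, at -0.96, and TYMS did not pass (-0.08). CDA was thus higher with 5-FU in each of the sensitive lines.

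Of 11 reductants and regulators of ribonucleotide reductase, none rose and 5 fell in HCT-116, among them CCNF (-1.29), the cyclin that marks RRM2 for degradation, and the kinase WEE1 (-1.01). In HT-29 none rose and 5 fell, the largest decreases being those of ATR (-0.92), the kinase of the replication checkpoint, and TXNRD2 (-0.82), a mitochondrial thioredoxin reductase. In DLD-1, 2 rose and 8 fell, again with ATR (-0.69) among them. These counts stand against 42%, 47% and 34.7% of all genes that changed in the 3 lines.

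Lists of cell cycle genes and of interferon-stimulated genes, chosen with earlier results of these data known, were counted beside the members. The cell cycle inhibitor CDKN1A and the ubiquitin ligase MDM2 are given with them. The counts are for 5-FU against uracil. They stand against 42%, 47% and 34.7% of all genes that changed in sensitive HCT-116, HT-29 and DLD-1. In sensitive HCT-116, CDKN1A (1.60) and MDM2 (1.3) rose, while 26 of 27 DNA replication genes and 13 of 13 mitosis genes fell. In HT-29, 17 of 27 replication genes rose and 6 fell, and MDM2 did not pass (0.09, adjusted p = 0.11), though CDKN1A rose from a mean of 1.88 to 30.9 TPM. All 13 interferon-stimulated genes rose in HT-29, with a median of 1.70, whereas 1 rose and 3 fell in HCT-116. Of the mitosis genes, 3 rose and 8 fell in HT-29. In DLD-1, 14 of 27 replication genes fell, 2 of 13 mitosis genes rose, and 5 of 11 interferon-stimulated genes tested rose and 2 fell. Neither CDKN1A (-0.37, adjusted p = 0.14) nor MDM2 (-0.03, adjusted p = 0.649) passed in DLD-1. The part of cell cycle position or of interferon signalling in the values of RRM1, RRM2 or SAMHD1 was not tested.

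With irradiation added to 5-FU, RRM1, RRM2 and DTYMK fell further in sensitive HCT-116, and in the other sensitive lines no member passed (whether the lines differ in this contrast was not tested). RRM2 went from 111, 113 and 114 TPM with 5-FU to 75.0, 71.7 and 75.6 TPM with both (log2 fold change -0.56, SE 0.0586, adjusted p = 1.59e-06). RRM1 was at 33.2, 33.1 and 35.4 TPM with both (-0.31, adjusted p = 6.74e-05) and DTYMK at 32.0, 31.9 and 31.8 TPM (-0.29, adjusted p = 0.00139). All 3 genes lay below their 5-FU libraries. They were the 3 members that passed, where 0.927% of all genes did. The RRM1 call was lost without replicate 2 (adjusted p = 0.0248) or 3 (0.0104), and the DTYMK call without each replicate number (0.0198 to 0.103). RRM2B was at 75.0, 69.2 and 67.4 TPM with both treatments (0.19, adjusted p = 0.0922), above every 5-FU library without passing the test. In DLD-1 (0.0642% of all genes) and HT-29 (0.00842%) the count was 0 with edgeR, with DESeq2 and at an unadjusted p under 0.05. These shares are those of edgeR at the adjusted p of 0.01, and none was counted at the unadjusted p. Against uracil, 5-FU with irradiation went with 3 members higher and 4 lower in HCT-116 (41.1% of all genes), 4 higher and 3 lower in HT-29 (46.6%) and 2 higher and 2 lower in DLD-1 (36.4%).

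In the lines labelled resistant, none of the 8 genes changed with 5-FU against uracil in edgeR's quasi-likelihood test or in DESeq2. At an unadjusted p under 0.05, 3 members of resistant DLD-1, 1 of resistant HCT-116 and none of labelled resistant HT-29 passed. No share of all genes was counted at that threshold. At the adjusted p of 0.01 few genes of any kind passed (0.385% of DLD-1 genes, 0% of HCT-116 genes and 0.0421% of HT-29 genes). In resistant HCT-116, RRM2 was at 381, 385 and 380 TPM under uracil and at 394, 395 and 378 TPM with 5-FU, and RRM1 was at 128, 120 and 123 TPM and then at 126, 131 and 123 TPM. Both genes overlapped between treatments. The 5-FU response itself differed between resistant and sensitive HCT-116 for 6 members (29.7% of all genes), by 1.57 for RRM1, 1.3 for RRM2, 1.05 for DTYMK, 0.84 for DCK, -0.45 for RRM2B and -0.45 for DCTD on the log2 scale. In DLD-1 it differed for 3 members (22.8% of all genes), RRM1 (0.32), NME1 (0.39) and DCTD (-0.31), of which DCTD was lost without replicate 2 (adjusted p = 0.0381) or 3 (0.0386) and RRM1 without replicate 3 (0.0101). RRM2B just missed the threshold in DLD-1 (0.29, adjusted p = 0.0103). It passed with DESeq2 (0.28, adjusted p = 0.00797) and without replicate 1, the number of the library that stood apart (0.35, adjusted p = 0.00526). Between labelled resistant and sensitive HT-29 the response differed for 5 members (35.4%), led by SAMHD1 (-1.23) and RRM2 (-0.92). These differences cannot be told apart from a difference between lines. There DCTD (0.29) was lost without replicate 1 (adjusted p = 0.0283) or 2 (0.0155) and RRM1 (-0.30) without replicate 1 (0.0101).

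Irradiation added to 5-FU raised RRM2B in resistant HCT-116 and in labelled resistant HT-29. RRM2B went from 37.6, 39.5 and 36.7 TPM to 47.8, 51.3 and 51.5 TPM in the former (log2 fold change 0.41, SE 0.053, adjusted p = 8.1e-05). It went from 38.6, 39.8 and 38.9 TPM to 58.8, 56.6 and 56.8 TPM in the latter (0.50, SE 0.0567, adjusted p = 3.39e-07). The irradiated libraries lay above the others in both. In resistant HCT-116, 1 member rose and 1 fell (2.58% of all genes), the second being RRM1 (-0.19, adjusted p = 0.00734), whose call was lost without each replicate number (adjusted p = 0.0231 to 0.141) and in a fit of only the groups compared (0.0256). In labelled resistant HT-29, 1 rose and 4 fell (14.4% of all genes). RRM2 fell there from 354, 356 and 359 TPM to 258, 243 and 239 TPM (-0.56, adjusted p = 1.03e-08), and DTYMK (-0.41), DCK (-0.39) and RRM1 (-0.30) fell with it.

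In the same contrast MDM2 (0.37 and 0.60) and CDKN1A (0.79 and 1.14) rose in resistant HCT-116 and labelled resistant HT-29, in that order, and in resistant DLD-1 CDKN1A rose too (1.08, adjusted p = 0.00282) while MDM2 did not pass (-0.04, adjusted p = 0.736). That CDKN1A call was lost without replicate 2 (adjusted p = 0.0661) or 3 (0.0421). Of 27 replication genes, 4 fell in resistant HCT-116 (2.58% of all genes changed) and 21 in labelled resistant HT-29 (14.4%). In resistant DLD-1 no member passed in edgeR or DESeq2 (3.85% of all genes in edgeR). At an unadjusted p under 0.05, 2 passed, a threshold at which no share of all genes was counted. There 7 of 27 replication genes rose. RRM2B was at 18.1, 17.5 and 19.3 TPM with 5-FU and at 16.9, 19.2 and 17.8 TPM with irradiation as well (-0.05, adjusted p = 0.685).

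Resistant cells were next set against sensitive cells under uracil alone. In HCT-116, 3 members were higher and 2 lower (41.1% of all genes). RRM2 was at 304, 304 and 301 TPM in sensitive and at 381, 385 and 380 TPM in resistant cells (log2 fold change 0.42, adjusted p = 2.28e-06), while RRM2B was at 46.9, 42.2 and 43.9 TPM and at 35.2, 34.8 and 38.7 TPM (-0.36, adjusted p = 5e-06). The small subunits thus differed in opposite directions, and neither overlapped. DTYMK (0.33) and DCK (0.27) were higher in resistant cells and SAMHD1 (-0.23) was lower, with 18.3, 18 and 21.8 TPM against 25.5, 24.7 and 23.5 TPM. The DCK call was lost without replicate 3 (adjusted p = 0.0303) and the SAMHD1 call without replicate 1 (0.0575).

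**Figure D3:**
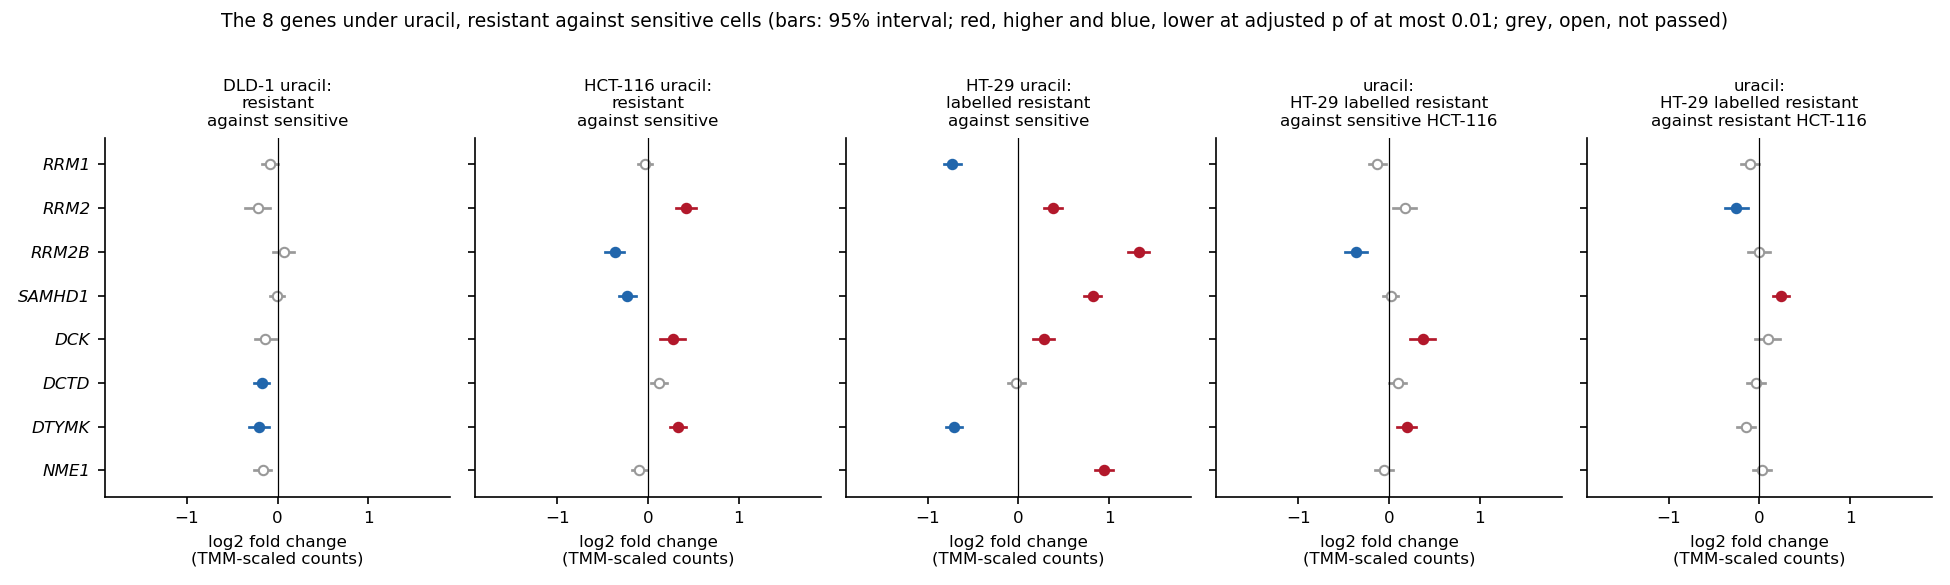
Log2 fold changes of the 8 genes under uracil with approximate 95% intervals from edgeR, for resistant against sensitive cells of each line and for labelled resistant HT-29 against both forms of HCT-116. Filled points passed an adjusted p of 0.01. RRM2B lay at 1.32 for labelled resistant against sensitive HT-29 and at -0.01 against resistant HCT-116.

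In DLD-1, 2 members were lower in resistant cells and 6 did not pass (24.6% of all genes). DCTD was at 84.1, 87.3 and 89.2 TPM in resistant cells, below the sensitive libraries (log2 fold change -0.17, adjusted p = 0.00295), and DTYMK was at 102, 119 and 112 TPM against 128, 128 and 130 TPM (-0.21, adjusted p = 0.00567). Both calls were lost without replicate 1, which removes the library that stood apart, and without each other replicate number, so that no member passed in any of these 3 fits (adjusted p = 0.0162 to 0.0446 for DCTD and 0.0133 to 0.0641 for DTYMK). RRM2 (-0.22, adjusted p = 0.0171) and NME1 (-0.16, adjusted p = 0.0108) did not pass in the main fit. They did with DESeq2 (adjusted p = 0.00855 for RRM2 and 0.00541 for NME1) and without the filter on low counts (5.61e-07 and 0.000497).

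Labelled resistant HT-29 differed from sensitive HT-29 in 7 of the 8 genes (68.4% of all genes). RRM2B was at 40.3, 42.0 and 37.5 TPM in the labelled resistant cells, over 2-fold the 12.7, 13 and 11.4 TPM of the sensitive cells (log2 fold change 1.32, adjusted p = 1.52e-16). NME1 was at 857, 849 and 822 TPM against 366, 375 and 343 TPM (0.94, adjusted p = 2.73e-15). SAMHD1 (0.82), RRM2 (0.38) and DCK (0.28) were also higher, and RRM1 (-0.73) and DTYMK (-0.71) were lower. DCTD lay at -0.02 (adjusted p = 0.672) and at 0.24 (adjusted p = 5.89e-07) with library size alone, which moved the median of all genes from 0.00101 to 0.264. Set against sensitive HCT-116 instead, 3 members differed (30.2% of all genes), DCK (0.37), DTYMK (0.20) and RRM2B (-0.36). Against resistant HCT-116, 2 differed (20.2%), RRM2 (-0.26, adjusted p = 0.00194) and SAMHD1 (0.23, adjusted p = 3.2e-05), and RRM2B did not pass (-0.01, adjusted p = 0.963). The DTYMK call was lost without replicate 2 (adjusted p = 0.0931) or 3 (0.0318), the RRM2 call without replicate 2 (0.0125) or 3 (0.0944) and the SAMHD1 call without replicate 1 (0.0109).

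The balance of the small subunits was expressed as the share of RRM2B in the summed TPM of RRM2 and RRM2B. In sensitive HCT-116 the share was 12.8% ± 0.591 (SD, n = 3) under uracil. With 5-FU it was 34.5%, 35.3% and 34.4% in the 3 libraries, and with irradiation added it was 49.99%, 49.1% and 47.1%. The shares of the treatments did not overlap, and with both treatments the gene totals of RRM2B and RRM2 in TPM were close to equal. In coding transcripts alone, a setting chosen after seeing the data, RRM2B exceeded RRM2 with both treatments (log2 ratio 0.68). In gene totals the log2 ratio of RRM2B to RRM2 was higher with 5-FU than under uracil by 1.86 (exact permutation test, two-sided, p = 0.1, the smallest that 3 against 3 libraries can give).

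In HT-29 and DLD-1 the share went the other way. It was 4.98% under uracil and 3.48% with 5-FU in sensitive HT-29 (log2 ratio -0.54, exact permutation p = 0.1) and 4.29% and 3.85% in sensitive DLD-1 (-0.16, exact permutation p = 0.1). In HT-29 this was so although RRM2B itself rose, since RRM2 rose more. Pooled over the 3 sensitive lines, with labels permuted within lines, the difference was 0.39 (permutation test over 8000 assignments, two-sided, p = 0.124). That average covers opposite directions.

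**Figure D4:**
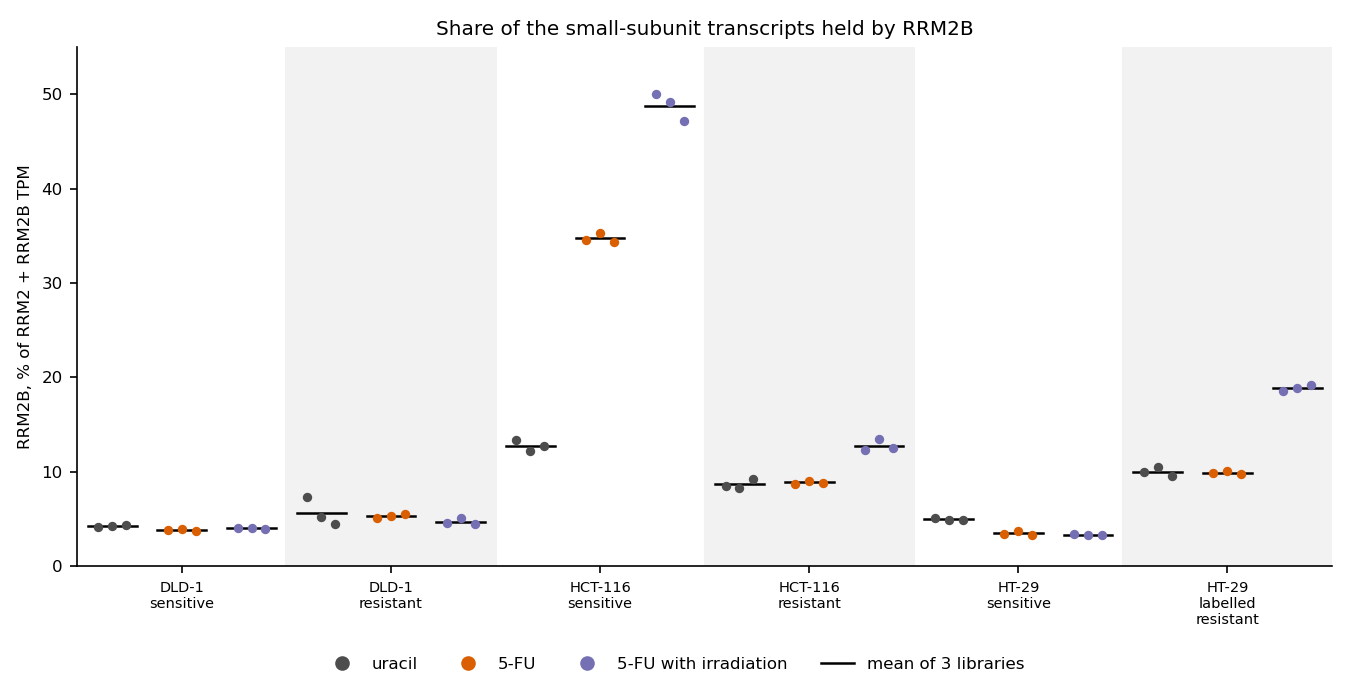
RRM2B as a percentage of the summed TPM of RRM2 and RRM2B against the 18 conditions. Points are single libraries and horizontal lines are means of 3. The share was near 48.7% in sensitive HCT-116 after 5-FU with irradiation and 3.35% in sensitive HT-29 after the same treatment.

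In resistant cells 5-FU left the share nearly where uracil had it, at 8.67% and 8.88% in HCT-116 and 10.0% and 9.89% in labelled resistant HT-29. The log2 ratio differed by 0.04 (exact permutation p = 0.5) and by -0.02 (p = 0.8). In resistant DLD-1 the uracil libraries were at 7.33%, 5.16% and 4.52%, the first being the library that stood apart, and 5-FU gave a mean of 5.34% (log2 ratio -0.06, exact permutation p = 0.9, and 0.18 without replicate 1). Irradiation with 5-FU went with higher shares in resistant HCT-116 (12.7%) and labelled resistant HT-29 (18.9% ± 0.308), and not in resistant DLD-1 (4.73%). Under uracil the log2 ratio differed between resistant and sensitive cells by -0.63 in HCT-116 and 0.39 in DLD-1. Between labelled resistant and sensitive HT-29 it differed by 1.08, which cannot be told apart from a difference between lines. Each had p = 0.1 in the exact permutation test. For DLD-1 the difference was 0.16 without replicate 1, which removes the library that stood apart. It turned to -0.04 when the most abundant transcript of each gene was used.

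As kallisto divided the reads, part of these gene totals came from transcripts annotated in GENCODE 44 as encoding no full-length protein. That division among overlapping transcripts of a gene is uncertain, so the transcript shares below are estimates. Of RRM2, transcripts annotated with a retained intron made up 34.0% to 56.1% of the gene's TPM by condition mean, and the main coding transcript RRM2-201 made up 37.9% to 58.8%. The retained-intron share was highest in sensitive DLD-1 under uracil, at 56.1% against 45.3% in resistant DLD-1, and in sensitive HT-29 it was 44.4% under uracil and 35.3% with 5-FU (exact permutation p = 0.1 for each). The short retained-intron transcript RRM2-207, 573 bases long, held 19.3% of RRM2 on average, and TPM weights short transcripts upward. RRM2B was mostly coding, with 88.0% to 97.0% of its TPM in coding transcripts, so the share of RRM2B above is a lower one than coding transcripts alone would give. Restricted to coding transcripts, a setting chosen after seeing the data, the log2 ratio of RRM2B to RRM2 was -2.04 under uracil, -0.20 with 5-FU and 0.68 with irradiation added in sensitive HCT-116.

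**Figure D5:**
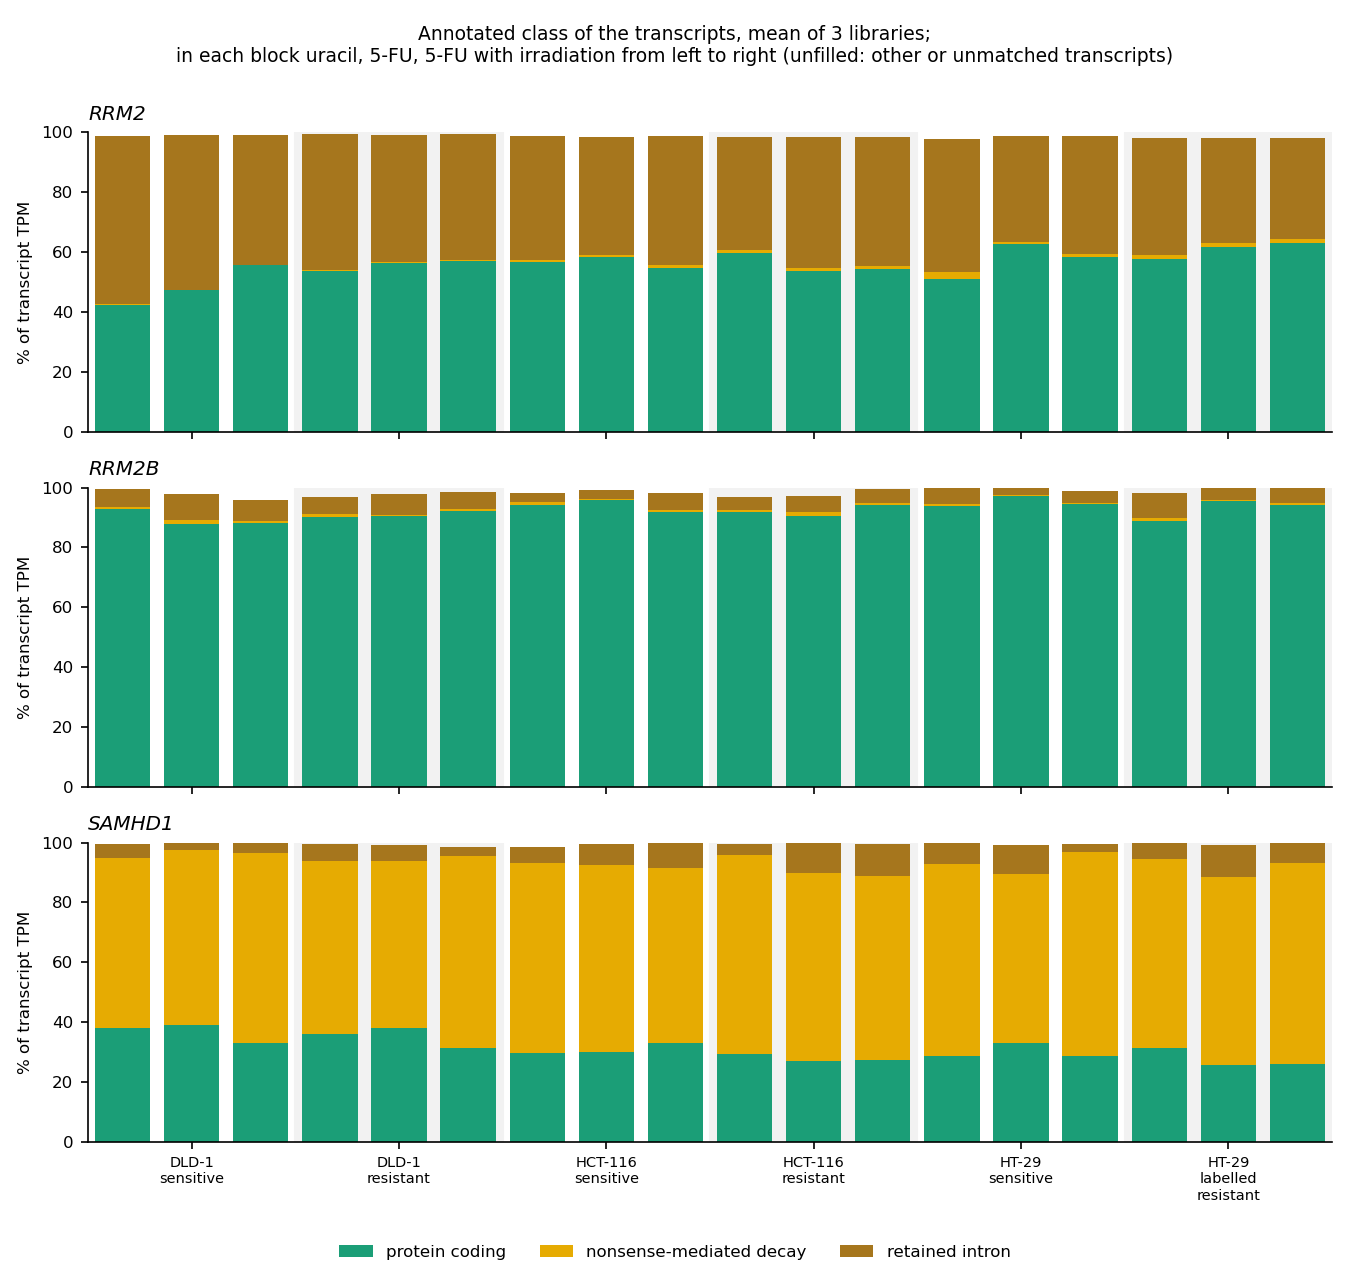
Percentage of the transcript TPM of RRM2, RRM2B and SAMHD1 in each annotated transcript class (protein coding, nonsense-mediated decay, retained intron), as stacked bars of condition means against the 18 conditions. Retained-intron transcripts held 34.0% to 56.1% of RRM2 and transcripts annotated for nonsense-mediated decay held 55.5% to 68.2% of SAMHD1, while RRM2B was mostly coding.

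Transcripts annotated for nonsense-mediated decay made up 55.5% to 68.2% of SAMHD1, and the leading one of these, SAMHD1-217, held 22.9% of the gene on average. In DTYMK the retained-intron share was 6.54% under uracil and 13.5% with 5-FU in sensitive HCT-116 (exact permutation p = 0.1), where the gene's total fell. NME1 shares sequence with its neighbour NME2 and with the readthrough gene NME1-NME2, so the division of reads between them by kallisto is uncertain. NME2 rose by 0.19 in sensitive HCT-116 and fell by 0.36 on the log2 scale in sensitive HT-29 with 5-FU, the same directions as NME1, but in sensitive DLD-1, where NME1 fell, it did not pass (-0.03, adjusted p = 0.589). In labelled resistant against sensitive HT-29, where NME1 was higher by 0.94, NME2 lay at 0.07 (adjusted p = 0.173).

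Across the 18 condition means of log2(TPM + 1), the genes most like RRM2 among 11680 genes were CDC6, ANLN, PKMYT1, CENPO and CEP55 (Pearson r of 0.981 to 0.972). Those most like RRM2B were MDM2, AC025423.4, TMEM63B, FDXR and SMURF2 (r of 0.986 to 0.982). Among the members, RRM1 and DTYMK (r = 0.945), RRM2B and NME1 (0.927) and RRM2 and DTYMK (0.915) were the most alike pairs, and RRM2B ran against RRM1 (-0.867) and RRM2 (-0.582). These are descriptions over 18 conditions that share lines, and much of each value is the difference between lines.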

How the data were processed

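RNA-seq of poly(A)-selected RNA was analysed in 54 libraries. The authors trimmed the reads with Trimmomatic 0.36, quantified them with kallisto 0.44.0 on Ensembl transcripts of GRCh38.p13, and deposited estimated counts and TPM per transcript and per gene. The deposited estimated counts are not normalized, and 60.7% of the gene values are whole numbers. The deposited TPM values are corrected for transcript length and library depth. Groups were taken from the labels. The members and lists were chosen with earlier results of these data known.

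Estimated counts were rounded and tested with edgeR 4.0.16 in R 4.3.3 (TMM, filterByExpr, quasi-likelihood test, Benjamini-Hochberg adjustment over all genes tested, threshold 0.01), in 1 fit per line over its 18 libraries with 12 residual degrees of freedom. Contrasts between lines used 1 fit over all 54 libraries with 36. The 8 members were tested in every comparison, but not every member is named in each. From other lists at most the 2 largest increases and 2 largest decreases that passed, at a mean of at least 1 TPM, were named, besides CDKN1A, MDM2, TYMS, DUT, TK1 and NME2. Some genes and a list covered by this rule are not reported here. The ratio of RRM2B to RRM2 and transcript shares were compared by exact permutation over libraries. Alternatives were DESeq2 1.42.0, no filter on low counts, library size alone, other thresholds, only the groups compared, a replicate block, each replicate number left out and the deepest library thinned to 23.0% of its counts. The fit was tested on simulated data. Python 3.11.15, numpy 2.4.6, pandas 2.3.3, scipy 1.17.1 and matplotlib 3.10.9 were used for the other steps. The precision of each value is limited by 3 libraries per condition.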

Additional observations from a re-analysis of the deposited data

Results flagged for a closer look

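The 5-FU response differed between groups of cells for 35 combinations of member and pair, each by a test of the difference itself (edgeR's quasi-likelihood test, highest adjusted p = 0.000737 by Benjamini-Hochberg). Each of the 8 members was tested in every pair, and 22.8% to 35.4% of all genes passed in the same contrasts. Some of these calls were lost when a replicate number was left out. They were DCTD and RRM1 between resistant and sensitive DLD-1 and between labelled resistant and sensitive HT-29. The same held for DCK between HT-29 and DLD-1 and SAMHD1 between HCT-116 and DLD-1. All values are differences of log2 fold changes. Between resistant and sensitive cells of HCT-116, the response of RRM1 differed by 1.57, of RRM2 by 1.3, of DTYMK by 1.05, of DCK by 0.84, of RRM2B by -0.45 and of DCTD by -0.45. Between those of DLD-1, that of NME1 differed by 0.39, of RRM1 by 0.32 and of DCTD by -0.31. Between labelled resistant and sensitive HT-29, that of SAMHD1 differed by -1.23, of RRM2 by -0.92, of NME1 by 0.71, of RRM1 by -0.30 and of DCTD by 0.29, and these differences cannot be told apart from a difference between lines.

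Between sensitive HT-29 and sensitive HCT-116, the response of RRM2 differed by 2.36, of RRM1 by 1.98, of SAMHD1 by 1.3, of DCK by 1.28, of DTYMK by 0.99, of NME1 by -0.83 and of DCTD by -0.56. Between HCT-116 and DLD-1, RRM2 differed by -1.44, RRM1 by -1.40, DTYMK by -1.06, DCK by -0.82, RRM2B by 0.69, NME1 by 0.41 and SAMHD1 by -0.28. Between HT-29 and DLD-1, SAMHD1 differed by 1.02, RRM2 by 0.92, RRM1 by 0.58, DCTD by -0.51, RRM2B by 0.50, DCK by 0.46 and NME1 by -0.42. Each line enters 2 of these pairs.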

How the results depend on the processing

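Of 1976 values of single genes under the alternatives, 1873 kept their side of the threshold, 63 lost and 39 gained a call in the same direction, and 1 changed sign with a call: DCTD in labelled resistant against sensitive HT-29 lay at 0.24 with library size alone. Values that passed in neither setting could change sign and are among those that kept their side. Of 120 calls of members, 28 were lost without at least 1 replicate number, none of them a 2-fold change.

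Counts of members called with the added demand of a 2-fold change were 3 for 5-FU, and for 5-FU with irradiation, against uracil in sensitive HCT-116. They were 3 for its response in resistant minus sensitive cells, 3 for that of HCT-116 minus DLD-1 and 4 for HT-29 minus HCT-116. The count was 2 for HT-29 against HCT-116 under uracil and 1 for each of the same treatment contrasts in sensitive HT-29. It was also 1 for the labelled resistant minus sensitive response of HT-29 and for labelled resistant against sensitive HT-29. HT-29 minus DLD-1, and HCT-116 against DLD-1 under uracil, gave 1 each, and the other comparisons gave 0. At an adjusted p of 0.05 the count was 1 for 5-FU in resistant DLD-1, 4 for resistant against sensitive DLD-1, 4 for added irradiation in resistant HCT-116 and 5 for labelled resistant HT-29 against sensitive HCT-116. With library size alone it was 3 for 5-FU in sensitive DLD-1 and 5 for labelled resistant HT-29 against sensitive HCT-116. Without the filter it was 4 for resistant against sensitive DLD-1, as with DESeq2, and 4 for added irradiation in resistant HCT-116. With only the groups compared these 2 counts were 0 and 1, and added irradiation in resistant DLD-1 gave 1. The share of all genes that also changed 2-fold is given only for 5-FU against uracil in sensitive cells (8.14% in HCT-116, 12.2% in HT-29 and 4.02% in DLD-1). The other counts of members in this section stand without such a share, so none is read as a result about the members.

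Leaving out replicate numbers gave counts of 3 to 5 for 5-FU in sensitive DLD-1 and 0 for resistant against sensitive DLD-1. The counts were 1 to 4 for the resistant minus sensitive response of DLD-1 and 3 to 6 for the labelled resistant minus sensitive response of HT-29. For added irradiation they were 1 to 2 in sensitive HCT-116 and 1 in resistant HCT-116. Labelled resistant HT-29 against resistant HCT-116 gave 1. With replicate numbers left out, the difference of the log2 ratio of RRM2B to RRM2 with 5-FU in resistant DLD-1 ranged from -0.25 to 0.178. In labelled resistant HT-29 it ranged from -0.049 to 0.0069 (TMM-scaled CPM gave 0.0166), and in resistant HCT-116 from -0.013 to 0.0944. In resistant HCT-116 the most abundant transcript gave 0.181 (exact permutation p = 0.1) and coding transcripts gave 0.172 (exact permutation p = 0.4). For resistant against sensitive DLD-1 the most abundant transcript gave -0.0414 and coding transcripts, chosen after seeing the data, 0.00993. Where not stated, the cause of these changes was not tested.

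Same-numbered libraries did not deviate together, with median correlations of 0.00835 for HCT-116, 0.00845 for HT-29 and -0.00101 for DLD-1. With a replicate block the counts of members moved by at most 1, through DTYMK with added irradiation in resistant HCT-116 (-0.20, adjusted p = 0.00943), NME1 in the resistant minus sensitive response of HCT-116 (-0.20, adjusted p = 0.00317) and RRM2B with 5-FU and irradiation in sensitive HT-29 (0.19, adjusted p = 0.00359). The pooled ratio had p = 0.301 in the blocked permutation test.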

Other observations

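Genes around the members also differed between resistant and sensitive cells under uracil, each by edgeR's quasi-likelihood test at an adjusted p of at most 0.01. In resistant HCT-116, where RRM2 was higher, 16 of 27 DNA replication genes were higher and 1 lower (41.1% of all genes differed), with the cyclins CCNE2 (log2 fold change 0.71) and CCNE1 (0.51) leading and the helicase subunit MCM6 (-0.34) lower, and 7 of 13 mitosis genes were higher. There MDM2 was higher (0.32) while CDKN1A (-0.49) and RRM2B were lower. The glutaredoxin GLRX, a reductant of ribonucleotide reductase, was lower (-1.60), and the glutathione reductase GSR was higher (0.59). In resistant DLD-1, 2 of 27 replication genes were higher and 11 lower, and 4 of 13 mitosis genes were lower and none higher (24.6% of all genes differed). Without replicate 1, which removes the library that stood apart, the replication counts there were 4 higher and 6 lower and 2 mitosis genes were lower. Without replicate 2 the replication counts were 1 higher and 7 lower, and without replicate 3 they were 1 and 6, all of these settings chosen after seeing the data. In labelled resistant against sensitive HT-29, 12 of 27 replication genes were higher and 9 lower (68.4%).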
